A study of Homo sapiens with 9 samples.

Results

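The genes described here are 117 of the 19569 gene IDs in a table of ribosome footprint counts from Jurkat T cells. Their footprint level was at most 0.6 of the resting level 5 h after activation and lay between 0.8 and 5/4 of it at 12 h. They were chosen by these measured values. Each count was divided by the total of its library and scaled to a total of 1000000 (CPM), and the 3 libraries of each time were averaged. An ID also needed a mean of at least 10 CPM over the 9 libraries, and second listings of genes shared by the X and Y chromosomes were dropped. The levels and ratios at the 3 times are therefore a description of the chosen genes, and so is any count of them called in a test of these libraries.

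Jurkat clone E6-1 is a human T lymphoblast line that signals through its T cell receptor. All 9 libraries came from this line, a leukaemic T cell rather than a primary one. Resting cells received no antibody, and the other groups were kept for 5 h or 12 h on plates coated with anti-CD3 antibody at 10 µg/mL, with anti-CD28 antibody added to the medium at 5 µg/mL. Each group had 3 replicates per the labels, and library totals ran from 4343515 to 18506509 counts.

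The deposited table lists Ensembl gene IDs without symbols. The symbols used below were recalled from memory of the public identifiers for 116 of the 117 IDs, and for every gene of the lists and markers. They were not checked against an annotation, since no file used here paired IDs with symbols. The counts belong to the IDs, whereas each gene name, its role, its place in a list and its promoter rest on a recalled pair that may be wrong. ENSG00000157600 was left under its ID. The IDs taken for T cell markers carried many footprints: the 12 of 14 found in the table summed to between 5560 and 5698 CPM at rest, between 7303 and 7810 CPM at 5 h and between 6799 and 6974 CPM at 12 h. Those of other cell types were low. No NK cell, monocyte or erythroid marker reached 5 CPM in any library. Of the 5 B cell markers, 4 stayed under 5 CPM, while CD79A lay between 83.4 and 115 CPM. The epithelial markers summed to between 9.42 and 11.5 CPM at rest, between 14.0 and 25.9 CPM at 5 h and between 16.3 and 22.4 CPM at 12 h. The fibroblast markers summed to between 8.55 and 20.3 CPM at rest, between 25.6 and 36.8 CPM at 5 h and between 29.0 and 53.3 CPM at 12 h, most of it from DCN. The part of these markers in the values below was not tested.

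Ribosome profiling sequences the mRNA pieces that ribosomes protect, so a gene's footprints reflect both the amount of its mRNA and how heavily that mRNA is translated. These 2 contributions, and slower or faster movement of ribosomes, cannot be told apart from footprints alone. Nor can a lower level in every cell be told apart from a loss in some of the cells, since each library comes from a whole culture. T cell receptor and CD28 signals set off calcium, Ras and NF-kappaB pathways within minutes, followed by waves of transcription over hours. The activated cell then takes up nutrients, remodels its metabolism and changes the splicing of many transcripts. Jurkat cells divide without stimulation, so programmes of growth and division are already active at rest.

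The DNA upstream of the start sites is given first for the genes with the lowest 5 h levels, since no feature of the sequence entered the choice. Shown are the 150 bases before the first listed start of the 5 genes with the lowest ratio that had an entry in the RefSeq promoter table (GRCh38.p14), read 5′ to 3′ on the strand of the gene, which is the minus strand for all 5. The windows are chr2:70248794-70248943 for TIA1, chr19:10568980-10569129 for CDKN2D, chr4:53366062-53366211 for SCFD2, chr16:229450-229599 for LUC7L and chr5:177312753-177312902 for MXD3. Capitals mark letters that match 1 of the 11 motifs searched.
TIA1: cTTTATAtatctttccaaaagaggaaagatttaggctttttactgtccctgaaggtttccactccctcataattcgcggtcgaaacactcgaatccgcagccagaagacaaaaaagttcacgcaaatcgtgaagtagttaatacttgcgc
CDKN2D: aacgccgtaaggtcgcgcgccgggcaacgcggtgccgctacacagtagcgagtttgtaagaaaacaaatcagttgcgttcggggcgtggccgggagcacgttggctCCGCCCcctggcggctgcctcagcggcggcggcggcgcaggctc
SCFD2: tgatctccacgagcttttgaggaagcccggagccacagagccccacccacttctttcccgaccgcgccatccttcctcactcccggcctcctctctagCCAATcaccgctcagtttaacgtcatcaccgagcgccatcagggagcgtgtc
LUC7L: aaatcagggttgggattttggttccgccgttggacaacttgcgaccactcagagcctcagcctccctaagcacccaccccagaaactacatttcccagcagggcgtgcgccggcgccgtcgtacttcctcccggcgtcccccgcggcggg
MXD3: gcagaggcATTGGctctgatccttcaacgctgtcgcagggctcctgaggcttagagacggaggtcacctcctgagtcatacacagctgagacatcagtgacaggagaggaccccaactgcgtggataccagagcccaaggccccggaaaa
The capitals are a TATA box (TATAAA, here on the reverse strand) in TIA1, a GC box (GGGCGG, reverse strand) in CDKN2D, and a CCAAT box in SCFD2 and, on the reverse strand, in MXD3. The LUC7L window held no match. No motif stood in all 5 windows.

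Over whole promoter entries of 300 bases, 250 before and 50 after a start, 98 of the 117 genes had 150 entries. Each motif was searched on both strands, and no motif contains another, although matches may share end bases. A CCAAT box stood in 34% of the entries, against 34.7% of 22199 entries of protein-coding genes and 34.6% of all 35116. The cell cycle homology element TTTGAA stood in 14.7%, against 12.4% and 15.2%, and the E2F motif TTTCCCGC in 2.0%, against 1.99% and 1.63%. These motifs were about as frequent in the entries of the 98 genes as elsewhere. Each was searched as 1 exact string, so variant forms were not counted. The YY1 motif AAGATGGC stood in 6.00%, which is 9 entries of 9 genes (AKAP9, DBT, DNAJC13, NAA16, SLX4IP, SREK1, TIA1, TNRC6C and ZNF207), against 3.53% of protein-coding and 2.89% of all entries. The E box CACGTG stood in 11.3%, against 8.34% and 7.26%, and the GC box in 61.3%, against 56.3% and 45.0%. The NRF1 motif GCGCATGC had 5.33%, against 3.74% and 3.05%. The ETS motif CCGGAAGT had 4.00%, against 5.34% and 4.14%, and the TATA box 6.67%, against 9.47% and 11.5%. The cyclic AMP element TGACGTCA and the ZBTB33 motif CTCGCGAG each stood in 1 entry, or 0.667%, against 2.26% and 1.38% of protein-coding entries and 1.85% and 1.02% of all. A match is a string of letters and does not show that a factor binds.

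Together the 117 genes held 0.868% ± 0.0200 of all footprints at rest (SD, n = 3 libraries, as for the other times). They held 0.459% ± 0.0152 at 5 h and 0.841% ± 0.00776 at 12 h. The 5 h libraries lay between 0.445% and 0.475% and the 12 h libraries between 0.832% and 0.846%, so the 3 libraries of each time lay close together. For single genes the ratio of 5 h to resting CPM ran from 0.31 to 0.60 with a median of 0.54, and that of 12 h to resting from 0.80 to 1.23 with a median of 0.95. The 12 h level was between 1.38 and 3.96 times the 5 h level, with a median of 1.82. Over all 8813 IDs with at least 10 CPM the corresponding medians were 1.05, 1.10 and 1.03. At 12 h, 70 of the 117 genes were under their resting mean and 47 at or above it.

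**Figure D1:**
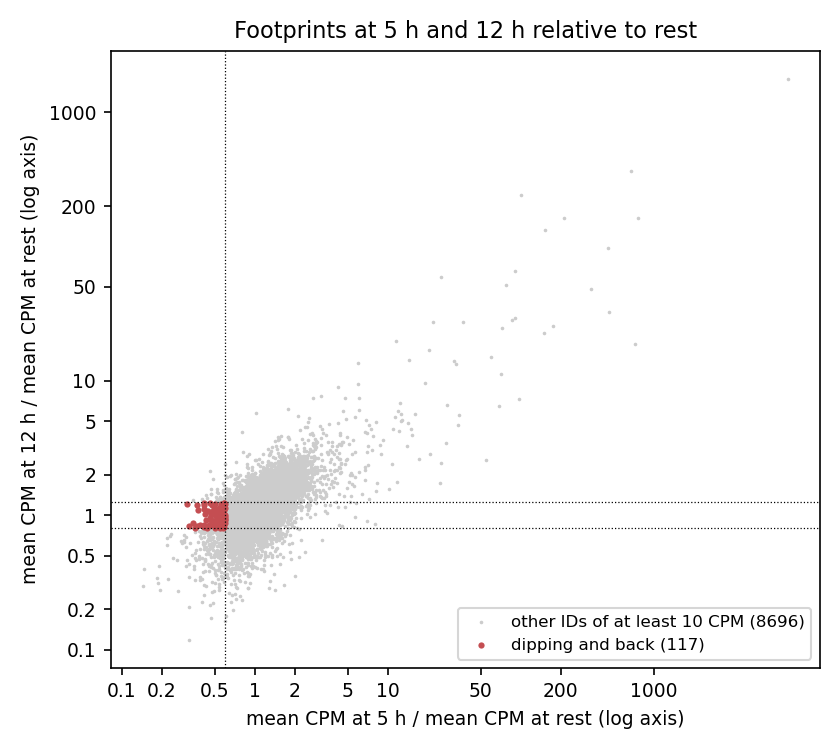
Mean CPM at 5 h over rest (x axis, log scale) against mean CPM at 12 h over rest (y axis, log scale) for the 8813 IDs of at least 10 CPM, 1 point per ID, with the chosen genes in red and dotted lines at the ratios 0.6, 0.8 and 5/4 that define them. The 117 chosen genes fill the left window between the horizontal lines; 265 IDs lie below that window at 12 h and 30 above it, and 1 ID with no footprint at rest has no ratio to plot.

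Of the 8813 IDs, 412 (4.67%) had a 5 h level of at most 0.6 of rest. At 12 h 265 of these were still under 0.8 of rest, 117 (28.4%) were back and 30 stood above 5/4. The chosen genes are thus the smaller share of the IDs that were low at 5 h, and they are 1.33% of all IDs of this abundance. The mirrored rule, a 5 h level of at least 1/0.6 of rest and a return to between 0.8 and 5/4, also found 117 IDs. Close to the limits the choice turned on small differences. TRERF1 and ATAD2B were just inside the 5 h limit at 0.5972 each, and the nearest IDs outside stood at 0.6019 and 0.6021. At 12 h COQ8A (0.8032) and RACGAP1 (0.8066) were just above the lower limit and the nearest IDs outside stood at 0.7984 and 0.7962. TMEM126B and PARP10, at 1.23 each, were the nearest to the upper limit, with 1.265 and 1.273 outside. SETD4 (10.26) and GCSAM (10.64) had the lowest mean CPM inside, with 9.754 and 9.519 mean CPM outside.

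Single libraries had the same order as the means. All 3 libraries at 5 h were below all 3 resting libraries for each of the 117 genes, and below all 3 libraries at 12 h as well for 114. Over all IDs of at least 10 CPM, 11.6% showed this arrangement. The values are those that chose the genes, so nothing is read from the contrast. The 3 genes without it were FKBP7, DHODH and DFFB, where a 5 h library reached or passed a 12 h library. The 12 h and resting libraries overlapped for 97 of the 117 genes, against 41.7% of all IDs of at least 10 CPM. For 14 genes all 12 h libraries were below all resting ones: SRPK2, TRA2A, FKBP7, RACGAP1, GLRX, LONP2, SLC25A38, RASGRP1, GNG2, ABCG1, SCFD2, ADAMTS1, MMUT and DBT. For 6 genes all were above: ZNF207, TRMT1L, TMEM126B, ATAD2B, BTN3A2 and SLX4IP.

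**Figure D2:**
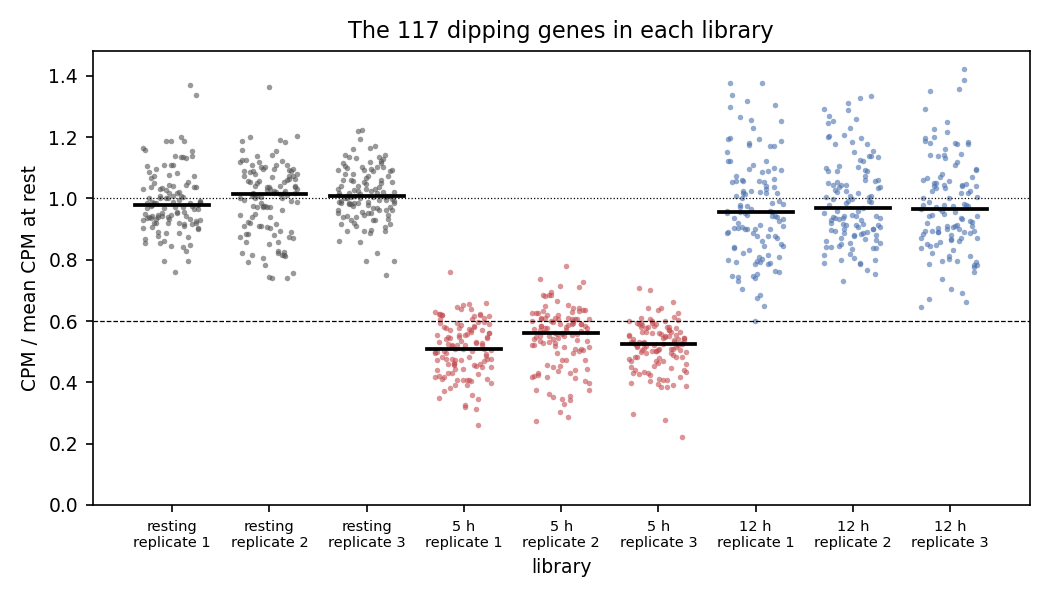
CPM of each of the 117 genes divided by its mean CPM at rest (y axis) in the 9 libraries (x axis), 1 point per gene and library; the horizontal bars are medians, and lines mark 1 (dotted) and 0.6 (dashed). The medians of the 5 h libraries are 0.51, 0.56 and 0.53, and those of the 12 h libraries 0.95, 0.97 and 0.96.

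A test of all 13920 IDs with enough counts (edgeR's quasi-likelihood test, adjusted p under 0.05) called all 117 genes lower at 5 h than at rest, where 18.4% of all IDs were called lower and 16.0% higher. It called 112 of them higher at 12 h than at 5 h, where 11.6% of all IDs were called higher and 13.5% lower. Between 12 h and rest it called 31 of the 117 lower and 0 higher, where 19.3% of all IDs were called lower and 15.8% higher. At an unadjusted p under 0.05, 45 genes differed between 12 h and rest. All 3 contrasts entered the choice, so the counts are given as description. The test scales libraries by TMM, which assumes that most genes do not change, while the genes were chosen over library totals. With library totals in the same test, 5 genes were called lower and 3 higher at 12 h than at rest.

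How far the genes came back depended on that scaling. TMM lowered the median log2 ratio of the 8813 IDs of at least 10 CPM by 0.16 at 5 h and by 0.22 at 12 h against library totals. Under TMM the median 12 h ratio of the 117 genes was 0.81 in place of 0.95. Of the 117 genes, 65 still met all limits and 52 fell short, each because its 12 h level was under 0.8 of rest. With DESeq2's median-of-ratios factors 78 met them, and 65 met them under both. Among these 65 were TIA1, LUC7L, ZNF207, AHSA1, METTL3, CENPI, ORC3, HIBCH, IDH1 and MXD3. Among the 52 were XPO1, U2AF2, PSMD1, PSMC6, ECT2, NEK2, RACGAP1, EZH2, SREBF1, RASGRP1 and BRCA2, whose return was partial under TMM. XPO1, EZH2 and BRCA2 missed the limit narrowly, at 0.80 after rounding, and met it with median-of-ratios factors. RACGAP1, at 0.69 under TMM, and U2AF2, at 0.70, met it under neither. No scaling raised the 5 h level: the dip was deeper under TMM, with a median of 0.49 over the 117 genes in place of 0.54.

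**Figure D3:**
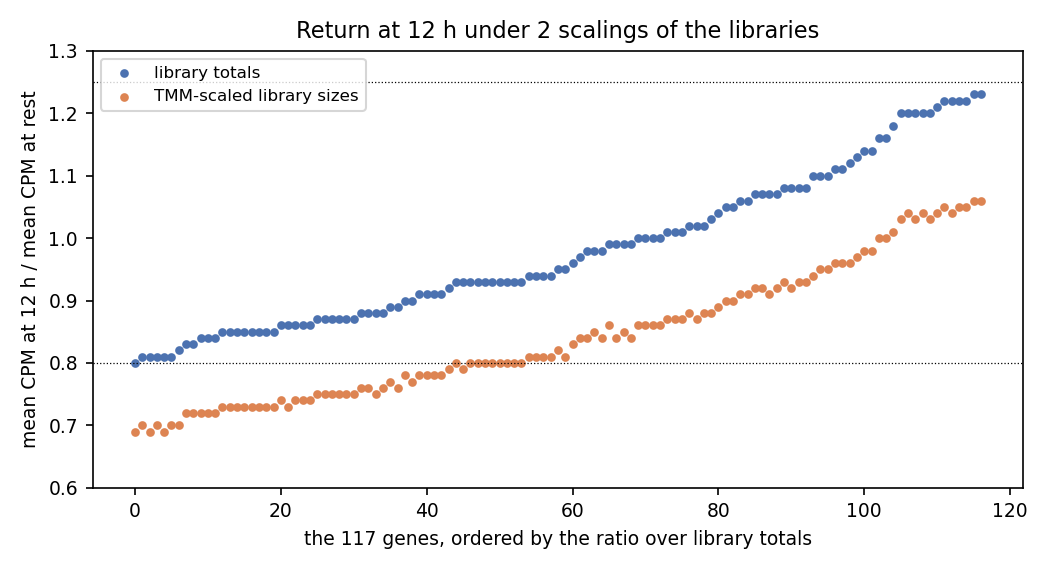
Mean CPM at 12 h over rest (y axis) for the 117 genes, ordered by the value over library totals (x axis), with library totals in blue, TMM-scaled library sizes in orange and dotted lines at 0.8 and 5/4. Every orange point lies under its blue one; the orange median is 0.81 and the blue 0.95.

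The genes are described below by role. Roles were given to the 117 genes only, so the share of each role among all 8813 IDs of this abundance is not known. The number of genes in a role is therefore no result, and the rule bounds the median of each role. Proteins that bind, splice, modify or export RNA made up 14 of the 117 genes, with a median of 0.51 of rest at 5 h and 1.00 at 12 h. Their footprints summed to 1944 CPM at rest, 1015 CPM at 5 h and 1867 CPM at 12 h. TIA1 had the lowest 5 h ratio of all 117. It encodes an RNA-binding protein of stress granules that also promotes the use of weak splice sites, among them in the transcript of the death receptor Fas. TIA1 had 142, 157 and 132 CPM in the resting libraries, 50.1, 39.6 and 42.8 CPM at 5 h and 187, 151 and 186 CPM at 12 h. The 5 h libraries stood at 0.31 of rest on average, far below both other groups, and the 12 h libraries at 1.22, with 1 of them inside the resting range. Its paralog TIAL1, which is outside the chosen set, had the same shape with a higher end point: its mean was 154 CPM at rest, 66.9 CPM at 5 h (0.44) and 207 CPM at 12 h (1.35). LUC7L encodes a component of the U1 snRNP, the particle that recognises the start of an intron. It had 49.9, 40.7 and 58.0 CPM at rest, 17.8, 17.0 and 20.2 CPM at 5 h and 52.1, 59.2 and 67.1 CPM at 12 h, or 0.37 and 1.20 of rest.

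The ID listed as FMC1-LUC7L2, a readthrough of neighbouring genes that overlaps LUC7L2, had 137, 152 and 132 CPM at rest, 70.4, 81.7 and 82.5 CPM at 5 h and 150, 146 and 160 CPM at 12 h. Footprints of the readthrough and of LUC7L2 itself cannot be told apart where they overlap. LUC7L2's own listing had means of 15.3, 9.92 and 29.7 CPM, and LUC7L3 had 113, 70.2 and 100 CPM, or 0.62 and 0.88 of rest. LUC7L and the readthrough were low at 5 h by the rule that chose them, so they do not bear on the rest of the family. Outside the set, LUC7L2 stood at 0.65 and LUC7L3 at 0.62 of rest at 5 h, and both were looked up afterwards. For LUC7L2 the fall, from 15.3 ± 7.36 to 9.92 ± 3.25 CPM (SD, n = 3), was smaller than its SD at rest.

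U2AF2, the large subunit of the factor that binds the polypyrimidine tract before the end of an intron, had 304, 255 and 319 CPM at rest. It had 160, 139 and 141 CPM at 5 h and 223, 258 and 229 CPM at 12 h. Its 12 h level, 0.81 of rest, was close to the lower limit, and 1 library of the 12 h group lay inside the resting range. U2AF1, the small subunit, was outside the set at 0.93 of rest at 5 h and 0.64 at 12 h. TRA2A, which activates splicing through exonic enhancers, had 101, 93.4 and 87.8 CPM, then 45.8, 47.5 and 47.5 CPM, then 81.8, 70.9 and 85.6 CPM. Its paralog TRA2B stood at 0.68 and 0.67 of rest and so did not come back. SREK1, another protein with arginine-serine repeats, had 53.5, 63.6 and 71.9 CPM, then 32.9, 31.7 and 30.3 CPM, then 65.3, 71.8 and 61.4 CPM, so that the 12 h and resting values overlapped fully. SRPK2, a kinase that phosphorylates such repeats, was at 0.50 and 0.86 of rest, and its paralog SRPK1 at 0.73 and 0.76.

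XPO1, the main export receptor of the nucleus, had the most footprints of the 117 genes. It had 500, 601 and 513 CPM at rest, 269, 336 and 322 CPM at 5 h and 516, 512 and 469 CPM at 12 h. METTL3, the catalytic subunit of the m6A methyltransferase, had 64.6, 68.8 and 69.3 CPM, then 38.8, 39.3 and 36.8 CPM, then 69.0, 74.6 and 61.4 CPM. Of its partners outside the set, METTL14 stood at 1.03 and 1.02 of rest and WTAP at 1.40 and 1.37. TNRC6C, a scaffold of miRNA-guided silencing that binds Argonaute, had 54.8, 42.6 and 59.3 CPM, then 28.2, 27.6 and 26.1 CPM, then 47.2, 53.6 and 46.7 CPM. The other members of its family stood at 0.95 (TNRC6A) and 1.14 (TNRC6B) of rest at 5 h. UBAP2L, a stress granule protein, was at 0.56 and 0.99 of rest, and STRBP, which binds double-stranded RNA, at 0.59 and 0.92. RNGTT, the mRNA capping enzyme, was at 0.50 and 1.02, and TRMT1L, of the tRNA methyltransferase family, at 0.52 and 1.11.

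**Figure D4:**
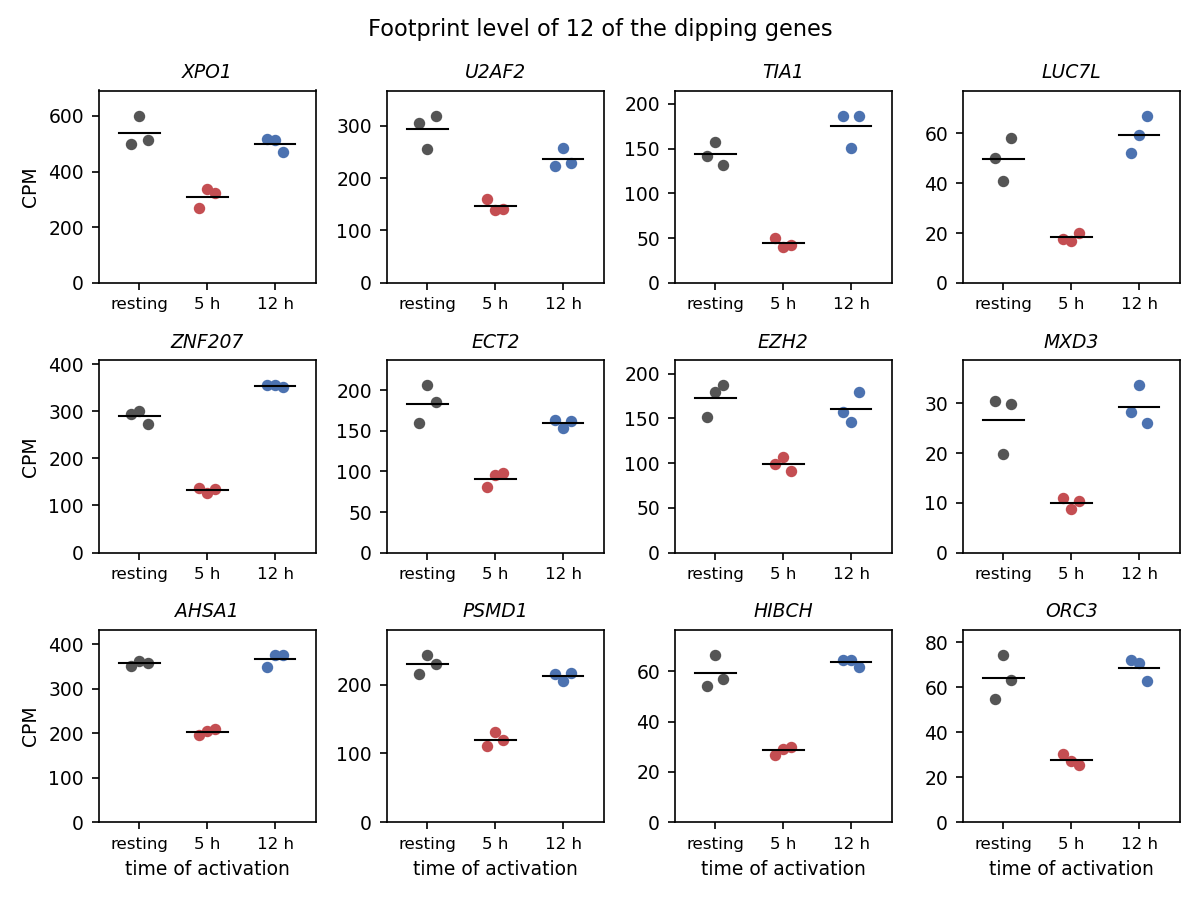
CPM (y axis, from 0) of 12 of the 117 genes in the 3 libraries of each time (x axis), 1 point per library, with the group mean as a bar. In each panel the 5 h points lie below all others; ZNF207 is the panel in which all 12 h points lie above all resting points.

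Mitosis, the centromere and the centrosome were the field of 13 genes, with medians of 0.55 and 0.93 of rest. ZNF207, also called BuGZ, brings the checkpoint protein BUB3 to kinetochores and also acts in splicing. It had 294, 300 and 273 CPM at rest, 137, 126 and 136 CPM at 5 h and 355, 355 and 352 CPM at 12 h. At 0.46 and 1.22 of rest it passed its resting level at 12 h in all 3 libraries over library totals, and stood at 1.05 of rest under TMM. ECT2, the exchange factor that switches on RhoA at the cleavage furrow, had 159, 206 and 185 CPM, then 80.8, 95.2 and 97.5 CPM, then 163, 154 and 162 CPM. RACGAP1, which recruits ECT2 as part of centralspindlin, had 159, 174 and 173 CPM, then 85.4, 99.4 and 107 CPM, then 132, 140 and 135 CPM. Its 12 h libraries were all below rest, at 0.81 on average. KIF23, the motor of the same complex, was at 0.61 and 0.65 of rest and so lay outside the set on both limits.

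NEK2, a kinase that separates the centrosomes, had 113, 122 and 127 CPM at rest, 51.1, 61.0 and 61.0 CPM at 5 h and 115, 107 and 107 CPM at 12 h. SPAG5, or astrin, which holds microtubules to kinetochores, had 207, 215 and 219 CPM, then 109, 128 and 130 CPM, then 209, 202 and 205 CPM. Both were low in every 5 h library. At 12 h NEK2 stood at 0.91 and SPAG5 at 0.96 of rest over library totals, or at 0.78 and 0.83 under TMM. The edgeR test called both lower at 12 h than at rest (adjusted p = 0.0205 and 0.0478). CENPI, of the constitutive centromere network, had 35.5, 40.5 and 36.6 CPM, then 14.3, 17.1 and 16.3 CPM, then 39.8, 38.9 and 36.4 CPM. Its direct partners CENPH, CENPK and CENPM stood at 1.42, 1.17 and 0.65 of rest at 5 h. CENPX, which serves both the centromere and DNA repair, was at 0.58 and 0.90. The centrosomal and centriolar proteins CEP97, CEP57L1, CCDC14, CCDC18 and AKAP9 stood between 0.54 and 0.57 of rest at 5 h and between 0.93 and 1.14 at 12 h. AKAP9 varied between replicates, with 51.4, 83.0 and 48.4 CPM at rest. PRR11, a cell cycle gene, was at 0.57 and 0.85.

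A list of 64 mitosis genes sets these values in place. Of its 63 genes with at least 10 CPM, 33 (52.4%) had a 5 h level of at most 0.6 of rest, against 4.67% of all IDs of that abundance. Only 4 of the 33 (12.1%) were back at 12 h, namely NEK2, ECT2, RACGAP1 and SPAG5, and the other 29 were still under 0.8 of rest. The median 12 h level of the 33 was 0.59 of rest, and that of all 412 low IDs 0.70. Most mitosis genes that were low at 5 h therefore stayed outside the chosen set because their 12 h level was still low. In the edgeR quasi-likelihood test, 53 of the 59 other tested genes of the list fell at 5 h and 0 rose, with a median log2 fold change of -0.86. At 12 h 43 were lower than at rest and 0 higher (median -0.60), and 24 were higher and 1 lower than at 5 h (median 0.24). With library totals in the test, 48 fell at 5 h and 32 were lower at 12 h. Of the 4 with the most footprints, BUB3 did not pass the test at either time (adjusted p = 0.118 and 0.494), whereas TOP2A passed it at 5 h (adjusted p = 0.0102) and MAD2L1 at both times (adjusted p = 0.00866 and 0.00214). CDK1, the mitotic kinase, went from 553 ± 52.4 CPM to 458 ± 20.6 at 5 h and 485 ± 24.1 at 12 h (SD, n = 3), with adjusted p = 0.000593 and 0.00145 against rest in edgeR.

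**Figure D5:**
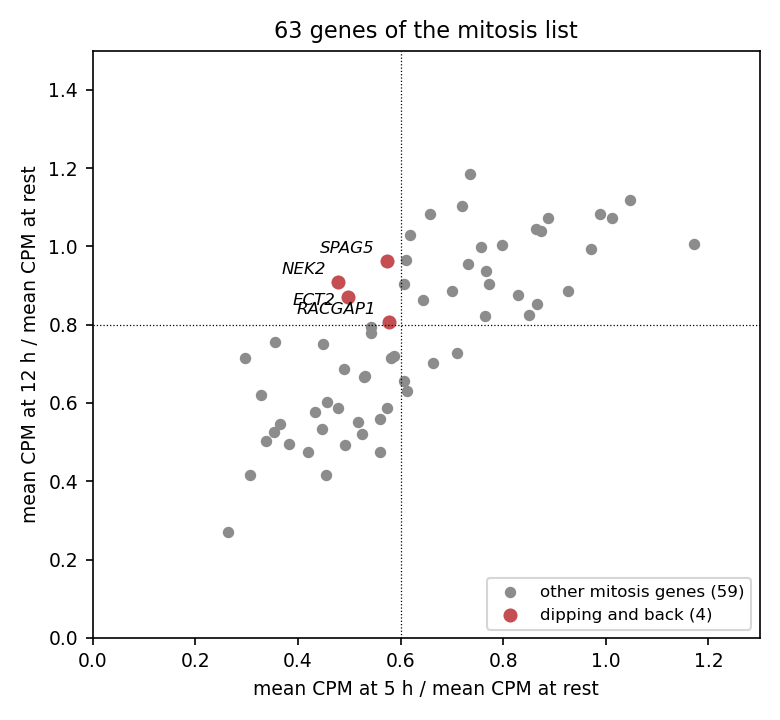
Mean CPM at 5 h over rest (x axis) against mean CPM at 12 h over rest (y axis) for the 63 genes of the mitosis list with at least 10 CPM, 1 point per gene, with dotted lines at 0.6 and 0.8. The 4 named genes in red are the only points left of 0.6 and above 0.8; 29 grey points lie left of 0.6 and below 0.8.

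Genes of DNA replication, repair and nucleases numbered 9, with medians of 0.54 and 0.94 of rest. ORC3, a subunit of the complex that marks replication origins, had 55.0, 74.4 and 63.5 CPM at rest, 30.3, 27.1 and 25.6 CPM at 5 h and 72.2, 70.7 and 63 CPM at 12 h. It stood at 0.43 and 1.07 of rest, while the other 5 subunits lay between 0.72 (ORC4) and 0.95 (ORC2) at 5 h. BRCA2, which acts in homologous recombination, had 61.2, 86.6 and 70.5 CPM, then 44.7, 40.3 and 41.4 CPM, then 75.0, 64.5 and 63.4 CPM. FANCE, of the Fanconi anaemia core complex, had 14.7, 12.1 and 13.1 CPM, then 5.58, 7.29 and 7.08 CPM, then 18.3, 14.5 and 15.9 CPM. The other Fanconi genes examined lay between 0.64 (FANCL) and 1.32 (FANCF) of rest at 5 h. In both complexes the chosen gene had the lowest 5 h ratio of the subunits examined, which were looked up after the gene had been chosen for that ratio.

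POLI, a translesion polymerase, had 17.4, 18.2 and 18.9 CPM, then 5.69, 11.7 and 8.11 CPM, then 14.3, 19.3 and 12.6 CPM, with wide spread after activation. TREX1, the exonuclease that clears DNA from the cytosol, was at 0.59 and 0.94 of rest. DFFB, the nuclease that cuts chromatin in apoptosis, was at 0.54 and 0.93. USP28, a deubiquitinase that stabilises MYC, was at 0.47 and 1.20, SLX4IP at 0.56 and 1.16, and PARPBP, which restrains recombination, at 0.60 and 0.93. Of 52 other genes of a list for the G1/S transition and DNA replication, 21 fell and 5 rose at 5 h (median log2 fold change -0.21, edgeR), 30 were lower and 2 higher at 12 h than at rest (median -0.34), and 1, UHRF1, had a 5 h level of at most 0.6. With library totals the counts were 17 and 9 at 5 h and 20 and 9 at 12 h.

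Chromatin, transcription and brakes on the cell cycle accounted for 12 genes, with medians of 0.56 and 0.98. EZH2, the methyltransferase of Polycomb repressive complex 2, had 152, 180 and 187 CPM at rest, 99.0, 107 and 91.4 CPM at 5 h and 157, 146 and 179 CPM at 12 h. Its paralog EZH1 had means of 20.3, 29.4 and 32.6 CPM. SREBF1, the transcription factor of fatty acid synthesis, had 137, 97.9 and 106 CPM, then 57.3, 40.6 and 43.9 CPM, then 73.8, 106 and 98.3 CPM. Its resting and 12 h libraries each held 1 value apart from the other two, and leaving out any of 4 libraries removed it from the set. SREBF2, its paralog for sterol synthesis, stood at 1.36 and 1.76 of rest.

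MXD3 and CDKN2D were among the deepest dips. MXD3 encodes a partner of MAX that opposes MYC at E boxes. It had 30.4, 19.8 and 29.9 CPM, then 10.9, 8.75 and 10.3 CPM, then 28.2, 33.6 and 26.0 CPM, or 0.37 and 1.10 of rest. Its relative MXI1 was at 0.80 and 1.45, MAX at 0.75 and 0.92, and MYC itself had 464, 370 and 108 CPM, which is 0.80 and 0.23 of rest. CDKN2D encodes an inhibitor of the cyclin D kinases. It had 29.8, 16.9 and 20.4 CPM, then 9.17, 8.98 and 4.97 CPM, then 18, 21.0 and 19.9 CPM, or 0.34 and 0.88. ATAD2B, a bromodomain protein, and SETD4, a methyltransferase, were at 0.60 and 0.59 of rest at 5 h, and the zinc finger or related proteins ZMYM1, ZNF138, ZNF652, TRERF1 and ZC4H2 between 0.51 and 0.60. ZNF138 belongs to a family of close copies, so its short footprints may be shared with them. Of 54 other chromatin modifiers on a list, 14 rose and 12 fell at 5 h in edgeR, against 16.0% and 18.4% of all IDs. With library totals 25 rose and 6 fell, a move that all 13920 IDs shared (3092 higher and 1763 lower). None of the 54 had a 5 h level of at most 0.6.

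Breakdown of the branched-chain amino acids leucine, isoleucine and valine involves 5 of the 117 genes, with medians of 0.53 and 0.88 of rest. BCAT2, the mitochondrial transaminase of the first step, had 60.6, 43.6 and 56.2 CPM at rest, 32.0, 23.6 and 35.5 CPM at 5 h and 48.2, 41.0 and 52.6 CPM at 12 h. DBT, the core of the dehydrogenase complex of the following step, had 33.4, 37.3 and 35.5 CPM, then 13.1, 21.5 and 25.1 CPM, then 28.1, 33.2 and 29.9 CPM. ACAD8 and HIBCH act on valine further down. ACAD8 had 40.8, 42.5 and 47.7 CPM, then 23.3, 23.8 and 22.0 CPM, then 48.4, 44.0 and 39.7 CPM. HIBCH had 54.2, 66.4 and 56.8 CPM, then 26.7, 29.2 and 30.0 CPM, then 64.4, 64.5 and 61.7 CPM, and so returned to 1.07 of rest. MMUT, the mutase that passes the carbon into the citric acid cycle, had 59.4, 60.5 and 52.9 CPM, then 24.8, 30.6 and 32.4 CPM, then 47.4, 50.2 and 51.3 CPM. The 5 genes thus span the pathway from its first step to its last.

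A list of 22 of its genes was drawn up after these 5 had been seen, so it carries no test. The 16 others with at least 10 CPM stood between 0.52 and 1.42 of rest at 5 h, with a median of 0.85 against 1.05 over all IDs of that abundance, and 10 of them were under 1. The 5 chosen genes, at most 0.6 of rest by the rule, are not among these 16. AUH, of leucine breakdown, was at 0.52 and came back past the limit, to 1.32. IVD was at 0.61 and 0.70. BCAT1, the transaminase of the cytosol, was at 1.42 and 1.55 of rest. BCKDHA and BCKDHB, which share the dehydrogenase complex with DBT, were at 0.82 and 0.77 at 5 h and at 0.80 and 0.69 at 12 h.

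Other mitochondrial and metabolic proteins were 18 genes, with medians of 0.56 and 0.95. GLUL, which makes glutamine from glutamate, had 294, 306 and 307 CPM at rest, 176, 178 and 175 CPM at 5 h and 314, 293 and 283 CPM at 12 h, with little spread. ETNK1, the ethanolamine kinase of phospholipid synthesis, had 197, 227 and 197 CPM, then 84.1, 97.6 and 84.5 CPM, then 189, 188 and 198 CPM. GLRX, a glutaredoxin that removes glutathione from proteins, had 127, 132 and 126 CPM, then 51.1, 47.8 and 49.5 CPM, then 108, 116 and 100 CPM. Its 12 h libraries were all below rest, at 0.84 on average.

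IDH1, the cytosolic isocitrate dehydrogenase, was at 0.56 and 1.16 of rest, whereas its mitochondrial relative IDH2 was at 1.17 and 1.29. TAMM41, of cardiolipin synthesis, had 31.4, 40.2 and 38 CPM, then 14.3, 16.4 and 14.8 CPM, then 48.1, 44.0 and 39.4 CPM. COQ8A, of coenzyme Q synthesis, had 28.1, 25.8 and 28.1 CPM, then 11.4, 11.4 and 13 CPM, then 26.0, 22.3 and 17.6 CPM, and 2 of its 12 h libraries were below all resting ones. DHODH, the mitochondrial enzyme of pyrimidine synthesis, was at 0.57 and 0.90 with overlap between 5 h and 12 h. TMEM126B, an assembly factor of complex I, was at 0.59 and 1.23. LARS2, the mitochondrial leucyl-tRNA synthetase, RPUSD3, which acts on mitochondrial RNA, and CLPB, a mitochondrial disaggregase, stood at 0.56, 0.59 and 0.59 at 5 h. SLC8B1, the sodium-calcium exchanger of mitochondria, was at 0.49 and 0.86, and SLC25A38, a carrier needed for haem synthesis, at 0.56 and 0.87. LONP2, a peroxisomal protease, was at 0.53 and 0.84, CBR4 at 0.57 and 1.10, and PTGES2 at 0.54 and 0.88.

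Signalling and surface proteins, many of them not particular to T cells, gave 16 genes, with medians of 0.53 and 0.95. RASGRP1, the exchange factor that carries the T cell receptor signal to Ras, had 155, 155 and 147 CPM at rest, 97.0, 89.2 and 83.8 CPM at 5 h and 131, 120 and 121 CPM at 12 h. All its 12 h libraries were below rest. RASA2, which acts on Ras in the opposite direction, had 68.2, 81.6 and 68.1 CPM, then 45.3, 45.4 and 38 CPM, then 97.1, 87.3 and 77.4 CPM, or 0.59 and 1.20. KCNA3, the potassium channel that sustains calcium entry, had 47.1, 41.6 and 52.5 CPM, then 27.9, 20.2 and 22.7 CPM, then 49.5, 59.6 and 43.3 CPM. ELMO1, which with DOCK proteins activates Rac, had 144, 163 and 175 CPM, then 89.7, 85.7 and 86.9 CPM, then 136, 146 and 127 CPM. Of 28 other tested genes of a T cell receptor list, 15 rose and 10 fell at 5 h (edgeR, median log2 fold change 0.32), and 11 were higher and 10 lower at 12 h than at rest. PTPRC, the phosphatase CD45, went from 879 ± 122 CPM at rest to 1665 ± 193 at 5 h and 1716 ± 47.4 at 12 h (SD, n = 3; adjusted p = 8.91e-07 and 9.75e-07 in edgeR). RASGRP1 and, outside the set, GRAP2 and UBASH3A were the genes of the list at or under 0.6 at 5 h.

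ABCG1, a cholesterol exporter, had 86.7, 71.2 and 77.2 CPM, then 37.1, 27.6 and 33.2 CPM, then 70.6, 70.4 and 57.8 CPM, so it stood at 0.42 of rest at 5 h and at 0.85, below all resting libraries, at 12 h. Of 29 other tested genes of cholesterol synthesis and its control, 13 rose and 4 fell at 5 h, and 23 were higher and 1 lower at 12 h than at rest (edgeR, median log2 fold change 0.81). Among them HMGCS1 went from 310 ± 17.5 CPM at rest to 778 ± 30.1 at 5 h and 1529 ± 92.0 at 12 h (SD, n = 3; adjusted p = 1.88e-11 and 1.73e-15 in edgeR). SREBF1 was the only gene of that list in the set.

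STK3, a Hippo pathway kinase, was at 0.47 and 0.93 of rest, while its paralog STK4 was at 1.64 and 1.28. The surface proteins TSPAN7, CD1D and BTN3A2 were at 0.58, 0.59 and 0.54 at 5 h and at 1.06, 1.14 and 1.13 at 12 h. BTN3A2 has near-identical neighbours, so its count is uncertain. P2RY8, a receptor that restrains lymphocyte migration, had 26.1, 20.4 and 31.9 CPM, then 14.5, 12.9 and 11.8 CPM, then 26.7, 33.6 and 27.0 CPM. It is the gene of the set with a second listing on the Y chromosome, and in the table all 18 such listings repeat the counts of their X listing. FZD2, a Wnt receptor, had 16.2, 13.2 and 14.3 CPM, then 4.74, 8.21 and 7.02 CPM, then 9.86, 16.8 and 10.3 CPM, and only 1 of its 12 h libraries reached rest. GIMAP2, GNG2, RIPOR2, GPR155 and GCSAM were between 0.46 and 0.60 of rest at 5 h and between 0.85 and 1.00 at 12 h.

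Folding, breakdown and modification of proteins gave 11 genes, with medians of 0.55 and 1.01. AHSA1, the co-chaperone that speeds up the ATP cycle of HSP90, had 352, 362 and 359 CPM at rest, 196, 206 and 210 CPM at 5 h and 349, 376 and 375 CPM at 12 h. HSP90 itself was lower at 5 h too. HSP90AA1 went from 2874 ± 193 CPM at rest to 1495 ± 160 at 5 h and 2076 ± 65.0 at 12 h, and HSP90AB1 from 2016 ± 92.0 to 1290 ± 26.9 and 1842 ± 4.88 (SD, n = 3). In edgeR both fell at 5 h (adjusted p = 1.07e-10 and 5.8e-10). Both were higher at 12 h than at 5 h (adjusted p = 0.000168 and 3.54e-06), but still below rest (adjusted p = 3.53e-07 and 0.000225). Of 17 other heat shock chaperones tested, these included, 11 fell and 4 rose at 5 h (median log2 fold change -0.38), and 8 were higher and 4 lower at 12 h than at 5 h (median 0.31). Against rest 11 were lower and 1 higher at 12 h (median -0.37), or 6 and 2 with library totals.

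PSMD1 and PSMC6 are subunits of the cap of the proteasome. PSMD1 had 215, 243 and 230 CPM, then 111, 131 and 119 CPM, then 215, 206 and 217 CPM, and PSMC6 had 140, 164 and 154 CPM, then 71.6, 90.3 and 79.7 CPM, then 144, 128 and 124 CPM. Of 44 other tested genes of the proteasome list, 30 fell and 1 rose at 5 h (edgeR, median log2 fold change -0.34), and 29 were lower and 4 higher at 12 h than at rest (median -0.33). With library totals 20 fell and 2 rose at 5 h, and 17 were lower and 7 higher at 12 h, so the share that was lower depended on the scaling. PSMA6 and PSMB10 were the other subunits at or under 0.6 at 5 h, and PSMA6 stayed at 582 ± 36.2 CPM at 12 h against 1073 ± 84.7 at rest (SD, n = 3; edgeR adjusted p = 2.47e-09).

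The J-domain proteins DNAJC13 and DNAJB14 were at 0.52 and 0.57 of rest at 5 h and at 1.01 and 1.08 at 12 h, and FKBP7, a prolyl isomerase of the endoplasmic reticulum, at 0.55 and 0.81. Among enzymes that modify proteins, NMT2, an N-myristoyltransferase, was at 0.51 and 1.07, and its paralog NMT1 at 0.87 and 1.18. PARP10, an ADP-ribosyltransferase, had 28.0, 22.1 and 30.1 CPM, then 9.27, 11.1 and 13.1 CPM, then 31.4, 29.2 and 38.1 CPM. NAA16, PCMTD1 and B4GAT1 stood at 0.57, 0.59 and 0.57 at 5 h.

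The remaining 19 genes, of trafficking, the cytoskeleton and other roles, had medians of 0.54 and 0.91. SCFD2, of a family that controls vesicle fusion, had 34.3, 32.6 and 37.2 CPM, then 11.1, 12.0 and 14.3 CPM, then 26.1, 27.9 and 30.1 CPM, or 0.36 and 0.81. ADAMTS1, a secreted protease, had 18.1, 16.7 and 19.8 CPM, then 7.37, 5.22 and 5.03 CPM, then 14.6, 14.3 and 16.6 CPM, or 0.32 and 0.83, with all 12 h libraries below rest. CORO2A, an actin-binding coronin, had 10.7, 13.6 and 14.4 CPM, then 3.37, 7.83 and 5.03 CPM, then 10.2, 15.2 and 17.9 CPM, or 0.42 and 1.12. It held the lowest count of the set in a library, 32. TBCK, a regulator of growth signalling, was at 0.44 and 1.07, VPS41, of fusion with lysosomes, at 0.53 and 0.85, and EHD1, of endocytic recycling, at 0.54 and 0.89. CCDC91, RIMOC1, STMN3, TTC7A, TTC9C, GPHN, TBL2, VILL, ODR4, PCYOX1L, ARHGAP23, GLMP and ENSG00000157600 stood between 0.50 and 0.59 of rest at 5 h and between 0.85 and 1.22 at 12 h.

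Genes of miRNA silencing are of interest because the series concerns repression and decay of mRNA by miRNAs. TNRC6C was the only 1 of 34 listed genes in the set. Of the 33 others 7 fell and 5 rose at 5 h (edgeR, median log2 fold change -0.07), where 18.4% of all IDs were lower and 16.0% higher. With library totals 5 fell and 9 rose (median 0.07), so the list had no direction that held under both scalings. At 12 h 9 were higher and 6 lower than at rest (median 0.00), or 14 and 4 with library totals (median 0.18). DGCR8, which with DROSHA cuts primary miRNAs, was the other gene of the list at or under 0.6 at 5 h.

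The place of many genes in the set rested on single libraries. When each of the 9 libraries was left out in turn, 49 of the 117 genes met the limits every time and 68 failed at least once. Leaving out resting replicate 2 removed the most, 29 genes, and leaving out 5 h replicate 2 the fewest, 6. Among those of the 68 with the most footprints were XPO1, U2AF2, SPAG5 and RACGAP1. Of the deepest dips, TIA1, LUC7L, SCFD2, CDKN2D and ADAMTS1 also failed at least once, whereas MXD3 and GLRX never failed. Other genes that met the limits every time included AHSA1, ZNF207, GLUL, PSMD1, ETNK1, ECT2, EZH2, NEK2, ORC3 and HIBCH.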

How the data were processed

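Footprint libraries of Jurkat cells were available for rest, 5 h and 12 h of activation, with 3 libraries for each. The deposited footprint counts are whole numbers per Ensembl gene ID, without normalization. Per the submitters' processing notes, the tools were DESeq2, RSEM, bedtools, Bowtie and cutadapt 3.2, with the build GRCh38.p13. Neither the counting of fragments that match several genes nor the use of strand is given in these sources. A second table by the authors holds log2 values for 11572 IDs. They equal log2 of the count over 1 size factor per library, plus 1, within 5.03e-09, and cover 116 of the 117 genes. They served to recover the authors' size factors.

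CPM were computed over library totals, and each gene had at least 32 counts in every library. Totals of 4343515 to 18506509 counts and 3 libraries per group set the precision. All IDs were tested with edgeR 4.0.16 (R 4.3.3): TMM, filterByExpr, all 9 libraries in 1 fit, quasi-likelihood test, Benjamini-Hochberg adjustment within each comparison, threshold 0.05. The common biological coefficient of variation was 15.6%. On simulated data the procedure recovered 38% of 1.5-fold and 96% of 2-fold changes for 5 h versus resting (13123 IDs, 5.65% of calls false). It recovered 20% and 92% for 12 h versus resting (13130 IDs, 7.14% false), and 26% and 88% for 12 h versus 5 h (13141 IDs, 5.45% false). The simulation changed only a small share of the IDs, drawn from the more abundant ones, equally up and down. Every ID was given the same spread. In the data 4797 of 13920 IDs were called at 5 h against rest, so these rates need not hold there. DESeq2 1.42.0 was an alternative. The 2 comparisons with rest share the resting libraries, and each activated group enters 2 comparisons.

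The genes and gene lists were chosen with earlier results of these data known. The lists cover mitosis, the G1/S transition, T cell receptor signalling, cholesterol synthesis, heat shock chaperones, chromatin modifiers, miRNA silencing and the proteasome, and each is given by counts without a set test. Named with values were the 15 genes with the most footprints, the 15 with the lowest 5 h ratio, list members, families with at least 3 genes, genes next to a limit and up to 4 abundant genes per list. Paralogs, partners, the branched-chain list and other genes outside these rules were chosen after the values were seen. Symbols were paired with Ensembl IDs from memory, without an annotation to check the pairs. All 116 symbols given to the 117 genes exist in RefSeq, and 507 of the 510 recalled IDs were in the table, but neither count tests whether a pair is right. Protein sequences were not used here. Values of a few of the 117 genes are not reported here.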

Additional observations from a re-analysis of the deposited data

How the results depend on the processing

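Other settings of the rule moved the number of genes that met it. With a 5 h limit of 0.5 or 0.7 of rest it found 31 or 293 genes, of which 31 or 265 had all 5 h libraries below all others. Median-of-ratios factors gave 184 genes (176 with that arrangement) and the authors' size factors, an alternative chosen after seeing the data, 185 (177), while TMM gave 162, of which 65 are among the 117. A minimum of 5 or 20 CPM gave 134 or 95 genes and group medians 123, all within 1.5 times of 117, as did leaving out 1 library (114 to 135). All 117 genes were called lower at 5 h under every setting run, and between 105 and 114 higher at 12 h than at 5 h, but the choice of the genes largely fixed these calls, so they are no sign of stability. The 31 genes called at 12 h against rest became 8 with library totals in the edgeR test (added after seeing the data), 20 with at least 50 counts in 3 libraries, and 21 to 36 when 1 library was left out. Over all IDs, library totals gave 3092 higher and 1763 lower calls at 5 h in place of 2230 and 2567, and 3493 and 1676 at 12 h against rest in place of 2204 and 2683. Same-numbered replicates deviated from their group means with correlations of -0.23 to 0.39, and 2 of 9 pairs were over 0.1. Pairs with different numbers had correlations of -0.48 to 0.33, and 7 of 18 were over 0.1. With 3 libraries per group these few correlations cannot settle whether the numbers pair the libraries. With the replicate number as a block, 4644, 4689 and 3373 IDs were called at 5 h against rest, 12 h against rest and 12 h against 5 h, and 117, 27 and 113 of the chosen genes. Counts limit the genes near 10 CPM most, where a library held as few as 32 footprints.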
